A study of Homo sapiens with 26 samples.

Results

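The comparison described here set MDA-MB-468 cells that were kept in DAPT against cells that were kept in its solvent, DMSO, in the agonism experiment of a Notch study. It used 6 of the 26 arrays of the series, namely the 3 with the treatment label DAPT and the 3 with the treatment label DMSO in that experiment, and every gene on the array was tested. MDA-MB-468 is an established human cell line of triple-negative, basal-like breast cancer. DAPT is a small-molecule inhibitor of gamma-secretase. In both groups cells were plated at 6.25 x 10e6 per dish, as the labels write it. The DAPT cells received 5 µM DAPT for 16 h, plain growth medium for 2 h, then 5 µM DAPT again, and were harvested 24 h after the 2 h washout. The DMSO cells went through the same schedule with 0.05% DMSO, and each agent was added once more at 22 h. The comparison addresses how much Notch activity these cells had with no ligand or agonist added. The labels speak of a single DMSO plate and leave unsaid whether a group's 3 arrays stem from independent cultures. The p-values below thus measure the spread between arrays of the same group, over all groups of the experiment. That spread may be technical.

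Notch receptors are cut first by an ADAM protease and then, inside the membrane, by gamma-secretase. The released intracellular domain enters the nucleus, joins the DNA-binding protein RBPJ and a Mastermind coactivator, and switches on genes such as those of the HES and HEY repressors. MYC is a known direct target of Notch in T-cell leukaemia and in mammary tumours, and Notch signalling is known to influence the choice between basal and luminal fate in the mammary gland. Gamma-secretase also cuts many other membrane proteins, among them E-cadherin, CD44 and the amyloid precursor protein, so DAPT is not an inhibitor of Notch alone.

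Windows of promoter sequence were read from RefSeq (build GRCh38.p14), from 250 bases before to 50 bases after each start site, on the strand of the gene. The letters GTGGGAA, the core of RBPJ sites, were searched on both strands and stood in 6.25% of all 35116 windows. Of 11 textbook Notch targets 9 had a window, and 5 of these held the letters (55.6%), namely those of HES1, HES4, HES5, HEY2 and HEYL. Only HES1 among them fell with DAPT, and the others did not pass. NOTCH3, which fell, had no match in its window, and HEY1, which also fell, had no window. The window of HES1 (chr3:194135898-194136197, plus strand), a repressor of transcription that fell with DAPT, and that of OLFM4 (chr13:53028563-53028862, plus strand), the gene with the largest fall, are shown with the match in capitals. In OLFM4 the match opens the window.
HES1: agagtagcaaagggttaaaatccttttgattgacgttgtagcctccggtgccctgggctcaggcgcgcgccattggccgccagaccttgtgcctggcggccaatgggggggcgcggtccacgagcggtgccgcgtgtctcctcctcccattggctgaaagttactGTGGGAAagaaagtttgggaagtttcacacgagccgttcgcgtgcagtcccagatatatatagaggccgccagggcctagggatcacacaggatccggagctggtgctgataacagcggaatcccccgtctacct
OLFM4: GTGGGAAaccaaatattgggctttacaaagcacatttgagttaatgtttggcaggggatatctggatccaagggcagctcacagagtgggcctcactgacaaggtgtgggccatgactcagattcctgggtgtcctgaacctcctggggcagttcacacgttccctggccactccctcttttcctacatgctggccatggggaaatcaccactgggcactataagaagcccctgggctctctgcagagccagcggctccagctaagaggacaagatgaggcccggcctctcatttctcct
The match in HES1 begins 85 bases before the start site, and that in OLFM4 250 bases before it. Over all genes the letters stood in 5.16% of the windows of genes that were higher with DAPT, in 6.85% of those of genes that were lower and in 6.07% of those of all tested genes. The letters CACGTG, the E-box that MYC with MAX is known to bind, stood in 7.26% of all windows and 8.36% of those of tested genes, in 7.56% of those of genes higher with DAPT and in 10.6% of those of genes lower. Among genes for building ribosomes 20 of 42 windows held it (47.6%). The share was 45.8% for those that fell with DAPT and 50% for those that did not pass, so the letters did not separate the 2 kinds. The windows of MRTO4 (chr1:19251555-19251854, plus strand) and NOC3L (chr10:94362890-94363189, minus strand), ribosome assembly factors that fell, are shown because their E-box lies within the first 50 bases after the start site.
MRTO4: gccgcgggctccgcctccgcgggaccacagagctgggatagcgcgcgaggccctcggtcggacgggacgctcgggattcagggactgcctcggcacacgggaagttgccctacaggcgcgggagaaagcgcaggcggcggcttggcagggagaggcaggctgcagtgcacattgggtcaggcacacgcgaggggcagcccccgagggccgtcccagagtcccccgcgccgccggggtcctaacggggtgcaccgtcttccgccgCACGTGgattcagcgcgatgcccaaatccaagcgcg
NOC3L: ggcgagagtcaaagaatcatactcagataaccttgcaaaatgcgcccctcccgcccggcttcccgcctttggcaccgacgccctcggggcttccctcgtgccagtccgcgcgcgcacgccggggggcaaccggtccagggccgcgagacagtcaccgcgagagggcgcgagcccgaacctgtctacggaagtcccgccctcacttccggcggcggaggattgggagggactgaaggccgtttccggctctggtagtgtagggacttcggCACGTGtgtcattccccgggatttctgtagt
These 4 windows were chosen after the expression values and the matches had been seen, and a match is a description of letters, not evidence of binding.

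Values are log2 of the deposited intensity, a relative signal that has no absolute unit. Each change is the DAPT mean minus the DMSO mean, from 3 arrays against 3. Its standard error, given after ±, rests on a spread estimated over all 18 agonism arrays, those of the other treatments included. In RNA from whole cultures, fewer cells of a kind and less RNA per cell cannot be told apart. A gene passed when its adjusted p was below 0.05 in limma. Of 19775 genes, 4089 passed (20.7%), 2446 higher with DAPT (12.4%) and 1643 lower (8.31%). Most changes were small, since 644 of the genes that rose and 465 of those that fell moved by less than 0.25, and 1501 and 969 by 0.25 to 0.5. In 30 genes (0.152%), each read on its brightest probe set, the change reached 2-fold, upward in 19 and downward in 11. With all 41091 single-gene probe sets tested, 67 passed with a 2-fold change, some of them in genes outside the 30. ADGRF1, for example, rose by 1.27 ± 0.10 and 1.09 ± 0.08 on probe sets other than its brightest. Among the 9888 genes in the upper part of the range of levels, 21.2% passed higher and 14.6% lower, which is the nearer background for lists of well-expressed genes. Counts of list members below are to be read beside these shares and those of all genes. The balance of directions depended on scaling: with each array centred on its median, 1867 genes were higher and 2209 lower, and with repeated quantile normalization 2236 were higher and 2118 lower.

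Array pairs differed by an SD of 0.146 to 0.179 between DAPT arrays and of 0.138 to 0.194 between DMSO arrays, and by 0.193 to 0.275 across the groups. DMSO array 2 lay nearest the DAPT arrays, at 0.193 to 0.217, against 0.177 and 0.194 from the other DMSO arrays. The number of genes that passed was 4975 without DMSO array 2, and 2585, 2663 and 2630 without DMSO array 1, DMSO array 3 and DAPT array 3. In 3865 of the genes that passed the arrays of the groups did not overlap, against 6342 of all genes (32.1%). Among markers of the cell line's type, EGFR was bright, at 13.50 to 13.67 in DAPT arrays and 13.35 to 13.36 in DMSO arrays, and the receptor gene PGR was dim, at 5.82 to 6.09 in DAPT arrays and 5.87 to 6.13 in DMSO arrays. The other receptors of the triple-negative label were not at the bottom of the range. ERBB2 stood at 9.32 to 9.37 in DAPT arrays and 9.02 to 9.12 in DMSO arrays, and the oestrogen receptor ESR1 at 8.12 to 8.39 in DAPT arrays and 7.65 to 7.83 in DMSO arrays, where the median gene stood at 7.82 to 7.86 and 7.78 to 7.82. These signals carry no detection call, so absence of a receptor could not be checked. Of 19 markers of fibroblasts, endothelium and immune cells, CDH5 was higher by 0.63 ± 0.13 and CD14 lower by 0.38 ± 0.08, and their mean level was 6.95 to 7.01 in DAPT arrays and 6.91 to 7.03 in DMSO arrays. Between 5 and 6 of the 19 lay below the lower quartile of the array with DAPT, and between 4 and 6 with DMSO.

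The largest rise was that of IGFBP5, a secreted protein that binds insulin-like growth factors. Its levels were 9.92, 9.70 and 10.13 in DAPT arrays, against 7.25, 7.70 and 7.13 in DMSO arrays. The groups stood far apart, and the change was 2.56 ± 0.16, or 5.89-fold (adjusted p = 3.37e-08). IGFBP5 had 6 probe sets, of which 4 passed, all higher, and their changes ran between 0.07 and 2.56. SCGB2A2, or mammaglobin, a secretoglobin of mammary epithelium, had 9.99, 10.30 and 9.69 in DAPT arrays, against 7.93, 7.96 and 8.24 in DMSO arrays. The arrays did not overlap and the change was 1.95 ± 0.15 (adjusted p = 1.96e-07).

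PIP, the prolactin-induced protein of breast and apocrine secretions, had 10.84, 10.71 and 10.79 in DAPT arrays, against 9.08, 9.14 and 9.33 in DMSO arrays. Its arrays were tight within each group and the rise was 1.60 ± 0.11. LRRC31, a leucine-rich repeat protein, had 7.88, 7.59 and 7.48 in DAPT arrays, against 6.03, 5.90 and 6.05 in DMSO arrays, and rose by 1.65 ± 0.14. Its DMSO arrays lay below their lower quartile (6.35 to 6.42), so that value is a lower bound. MUCL1, a small mucin of breast epithelium, had 11.96, 12.002 and 11.95 in DAPT arrays, against 10.73, 10.93 and 10.97 in DMSO arrays. That is a rise of 1.09 ± 0.08 in a gene brighter than 91.5% of all genes.

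Other genes that at least doubled coded for matrix, surface and signalling proteins. Nephronectin (NPNT), an integrin ligand of basement membranes, rose by 1.36 ± 0.09 and COL5A2, a fibrillar collagen chain, by 1.25 ± 0.10. The surface proteins CEACAM6, an adhesion molecule, and PSCA, a lipid-anchored antigen, each rose by 1.17 ± 0.08. NEDD9, a scaffold at focal adhesions, rose by 1.12 ± 0.09, with 2 of its 5 probe sets higher and the other 3 not passing. The serine protease TMPRSS11E rose by 1.19 ± 0.13, the ferric reductase CYBRD1 by 1.11 ± 0.11, the calcineurin regulator RCAN2 by 1.06 ± 0.10, and PRR15, a proline-rich protein, by 1.04 ± 0.08. PLEKHS1, a protein with a membrane-binding domain, rose by 1.01 ± 0.20 and was dim, with 6.24, 5.49 and 6.17 in DAPT arrays, against 4.98, 4.91 and 4.98 in DMSO arrays. Its DAPT arrays spread more widely than its DMSO arrays.

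The largest fall was that of OLFM4, olfactomedin 4, a secreted glycoprotein known as a marker of intestinal stem cells, where in the mouse it depends on Notch. Its levels were 5.42, 5.02 and 5.40 in DAPT arrays, against 7.56, 7.43 and 7.25 in DMSO arrays. The gap between the groups was far wider than either group, and the change was -2.13 ± 0.12 (adjusted p = 2.47e-08). The DAPT arrays lay below the lower quartile of their own signals (6.37 to 6.42) and cannot be told from background, so the fall is at least 4.39-fold. NRP1, a co-receptor for semaphorins and VEGF, had 6.94, 6.80 and 7.003 in DAPT arrays, against 8.13, 8.14 and 8.16 in DMSO arrays, a change of -1.23 ± 0.09. Of its 4 probe sets 2 passed, both lower.

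S100A3, a calcium-binding protein, had 8.32, 8.22 and 8.17 in DAPT arrays, against 9.56, 9.34 and 9.60 in DMSO arrays (-1.26 ± 0.09). SERPINA3, a secreted protease inhibitor of the acute phase, had 9.66, 9.61 and 9.37 in DAPT arrays, against 10.66, 10.67 and 10.75 in DMSO arrays (-1.14 ± 0.07). Neither gene's groups overlapped. MMP7, a matrix metalloproteinase, changed by -1.08 ± 0.09, the antimicrobial peptide DEFB1 by -1.07 ± 0.10 and IL22RA2, a soluble decoy receptor for interleukin 22, by -1.03 ± 0.09. POLR3G, a subunit of RNA polymerase III, changed by -1.04 ± 0.13, with 2 of its 3 probe sets passing. FAM216A changed by -1.30 ± 0.10 and CASP4LP, a caspase pseudogene, by -1.37 ± 0.17, the last on 1 of its 2 probe sets. The DAPT arrays of CASP4LP (6.44, 5.87 and 5.95) lay near or below their lower quartile (6.37 to 6.42), so its fall may be understated. Every array of the 30 genes is in the plot of single arrays. All 30 passed in each of the 6 fits that left out an array, and each passed under every other setting that tested it. The filter on level tested 21 of them, and removal of probe sets marked for cross-hybridization left 27, without MYC, OLFM4 and KLF4. Of the 30 genes 18 had a single probe set, and of the 12 with several, 7 passed in the same direction on all of them.

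**Figure D1:**
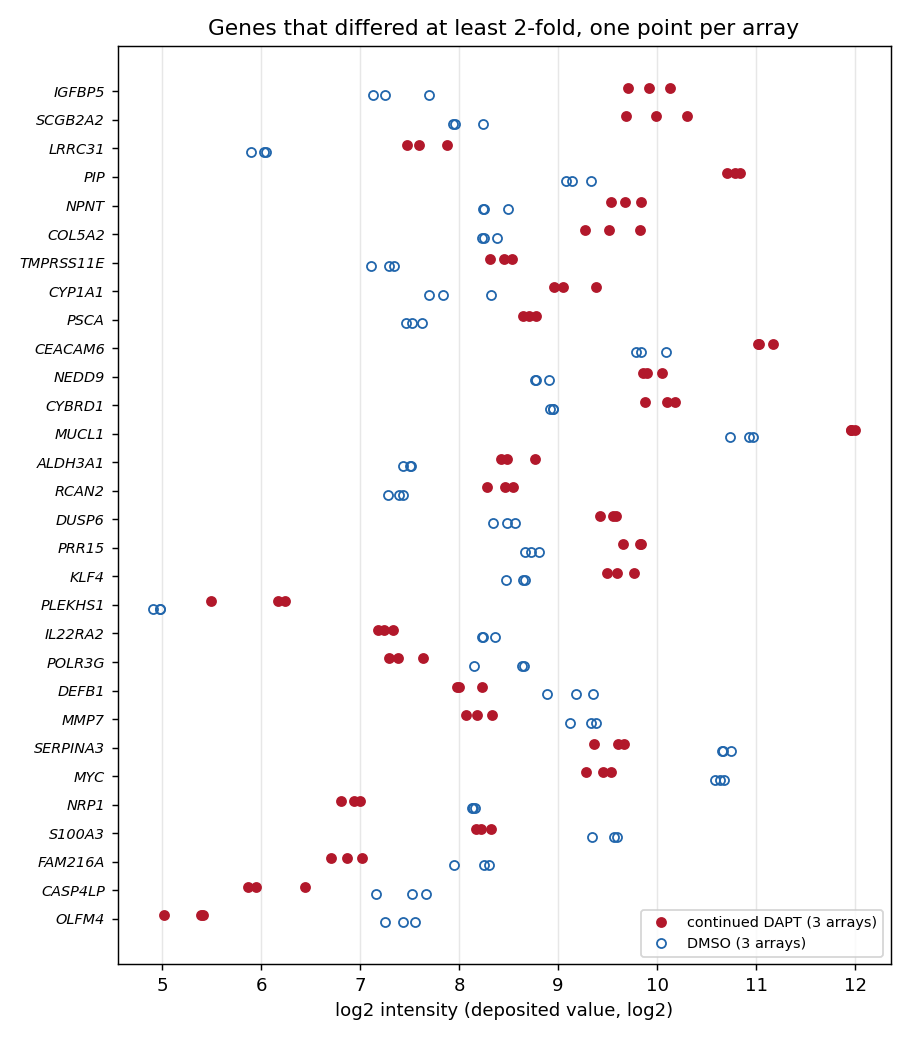
Log2 intensity of the 30 genes that changed at least 2-fold, with 1 point per array; filled points are the 3 DAPT arrays and open points the 3 DMSO arrays. The groups do not overlap in any of the 30 genes, and IGFBP5 and OLFM4 show the widest gaps.

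No measured Notch target, receptor, ligand or fringe enzyme reached a 2-fold change. Of 11 Notch targets 3 fell and 0 rose, against 8.31% and 12.4% of all genes, and the list's median change was -0.17, against 0.02 for all genes. NOTCH3, a receptor and itself a target, had 10.21, 10.59 and 10.51 in DAPT arrays, against 11.13, 11.13 and 11.25 in DMSO arrays. Its groups did not overlap (-0.73 ± 0.14, adjusted p = 0.00128), although its second probe set gave -0.06 ± 0.12 and did not pass. HES1 had 10.03, 10.01 and 10.10 in DAPT arrays, against 10.38, 10.54 and 10.38 in DMSO arrays, and fell by 0.39 ± 0.06 (adjusted p = 0.000347). Its fall rested on 2 probe sets whose names mark possible cross-hybridization, and the remaining probe set gave 0.06 ± 0.09 and did not pass. HEY1, another repressor of the pathway, fell by 0.26 ± 0.06 on a probe set of the same kind, and its other probe set gave -0.18 ± 0.07.

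The other targets missed the threshold. NRARP, which restrains Notch in a feedback loop, had 7.77, 8.02 and 7.97 in DAPT arrays, against 8.10, 8.17 and 8.05 in DMSO arrays, groups that did not overlap, yet with an adjusted p of 0.0563. HES4 gave -0.18 ± 0.08, HEY2 -0.17 ± 0.08, HES2 -0.07 ± 0.08, HEYL 0.01 ± 0.07, HES5 0.12 ± 0.08 and the ubiquitin ligase DTX1 0.10 ± 0.12. HES7 gave -0.0034 ± 0.08. These values lay within or near the spread between arrays.

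Among 12 receptors, ligands and fringe enzymes 2 rose and 2 fell. NOTCH2 rose by 0.26 ± 0.07 and LFNG, a sugar transferase that modifies Notch receptors, had 8.31, 8.29 and 8.59 in DAPT arrays, against 7.73, 7.92 and 7.80 in DMSO arrays (0.58 ± 0.11, adjusted p = 0.00117). The ligand JAG1 fell by 0.32 ± 0.07, on 3 of its 6 probe sets. NOTCH1 gave -0.25 ± 0.09 and did not pass, nor did the ligands DLL1, DLL3, DLL4 and JAG2 (-0.17 to -0.04), NOTCH4 (0.09 ± 0.10) and the fringes MFNG and RFNG (0.06 and 0.08). The call for NOTCH2 was lost when only these 6 arrays were fitted, and that for JAG1 when probe sets were averaged.

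Of 16 genes for the cleavage machinery and nuclear partners of Notch 3 rose and 1 fell. ADAM10, the protease of the first cut, rose by 0.27 ± 0.06, the gamma-secretase subunit nicastrin (NCSTN) by 0.24 ± 0.06 and the coactivator MAML2 by 0.24 ± 0.08, while NUMB, an inhibitor of Notch, fell by 0.36 ± 0.11 on a dim probe set. RBPJ gave 0.06 ± 0.05 and did not pass. Of 18 other substrates of gamma-secretase 6 rose and 0 fell, against 12.4% and 8.31% of all genes, and 11 of the 18 lay in the upper part of the range of levels, where 21.2% rose. The sorting receptor SORL1 had 9.93, 9.97 and 10.09 in DAPT arrays, against 9.27, 9.28 and 9.29 in DMSO arrays, a rise of 0.71 ± 0.07, and E-cadherin (CDH1) rose by 0.53 ± 0.07. CD44, an adhesion receptor, rose by 0.25 ± 0.05 on its brightest probe set, while 2 of its 13 probe sets fell. The calls for MAML2 and NUMB were lost when only these 6 arrays were fitted, and those for NCSTN and CD44 when probe sets were averaged.

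**Figure D2:**
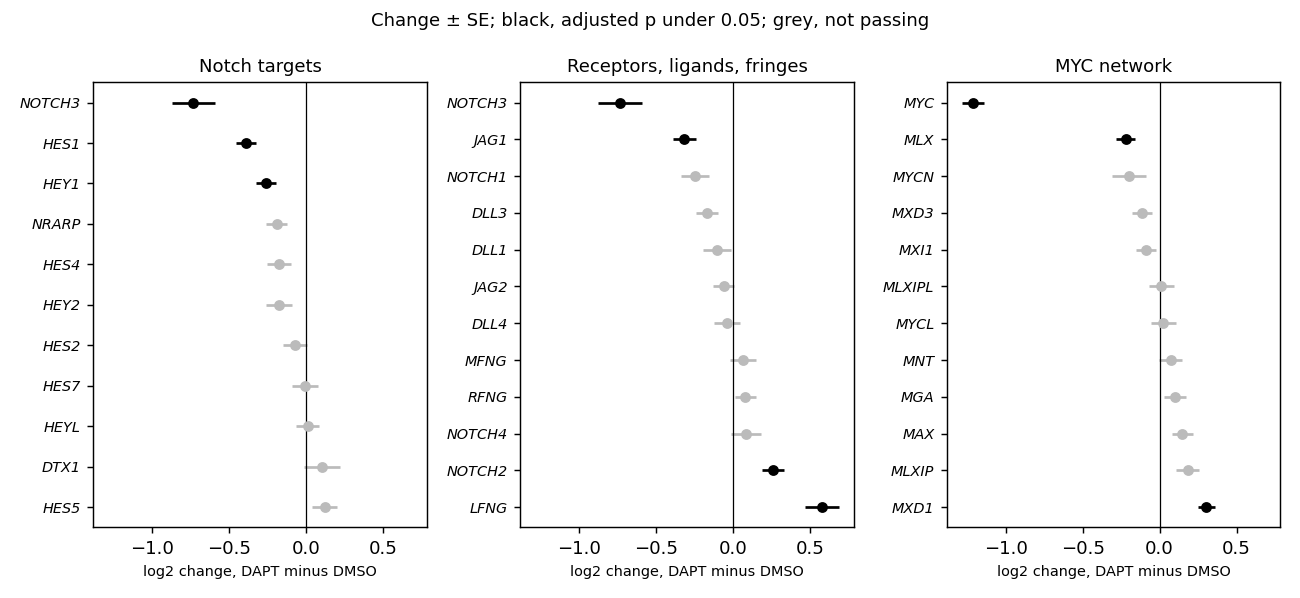
Log2 change, DAPT minus DMSO, with its standard error, for every measured Notch target, Notch receptor, ligand or fringe, and member of the MYC network; black marks adjusted p below 0.05. NOTCH3, HES1 and HEY1 lie to the left of 0 among the targets, and MYC lies farther left than any gene of the pathway.

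MYC, a transcription factor that drives growth, fell more than any member of the Notch pathway. Its levels were 9.46, 9.28 and 9.54 in DAPT arrays, against 10.68, 10.64 and 10.59 in DMSO arrays. The groups were more than 1 log2 unit apart, and the change was -1.21 ± 0.07 (adjusted p = 2.66e-08). Of the 12 members of its network 1 rose and 2 fell. MXD1, a repressor that competes with MYC for MAX, rose by 0.30 ± 0.06, and MLX, a partner of MXD proteins, fell by 0.22 ± 0.06, a call lost when only these 6 arrays were fitted. MAX gave 0.15 ± 0.07, MNT 0.07 ± 0.07, MGA 0.10 ± 0.07, MXI1 -0.09 ± 0.06, MXD3 -0.11 ± 0.06, MYCN -0.20 ± 0.11, MYCL 0.03 ± 0.08, MLXIP 0.18 ± 0.08 and MLXIPL 0.01 ± 0.08, and none of these passed.

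Genes for building ribosomes are known to follow MYC. Of 41 measured, 21 fell and 0 rose (51.2% called), with a median change of -0.23, and all 41 were in the upper part of the range of levels, where 14.6% of genes fell. MRTO4, which assembles the large subunit, had 9.41, 9.30 and 9.28 in DAPT arrays, against 9.97, 9.89 and 10.02 in DMSO arrays (-0.63 ± 0.07). WDR12, of the complex that matures large-subunit RNA, had 10.85, 10.80 and 10.82 in DAPT arrays, against 11.47, 11.32 and 11.47 in DMSO arrays (-0.60 ± 0.06). NOC3L, a nucleolar factor of pre-ribosome transport, gave -0.58 ± 0.07, the nucleolar protein LYAR -0.54 ± 0.08, the polymerase I and III subunit POLR1C -0.53 ± 0.07 and PNO1, which processes small-subunit RNA, -0.50 ± 0.07, and all fell. Abundant nucleolar proteins did not pass, with NPM1 at -0.09 ± 0.05, NCL at -0.03 ± 0.08 and FBL at -0.08 ± 0.06. Of 16 ribosomal proteins 0 passed, and their changes lay between -0.12 and 0.05. With median centring 4 of them passed as lower.

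Genes for making nucleotides, polyamines and one-carbon units gave 9 that fell and 0 that rose among 25. NME1, a nucleoside diphosphate kinase, fell by 0.52 ± 0.06, ADSL, a step of purine synthesis, by 0.45 ± 0.06, and ODC1, the first enzyme of polyamine synthesis and a textbook MYC target, by 0.25 ± 0.06. The trifunctional enzyme CAD, also a known MYC target, gave 0.05 ± 0.09 and did not pass. Of 25 subunits of oxidative phosphorylation 11 fell and 1 rose. CYC1, cytochrome c1, fell by 0.39 ± 0.06 and NDUFA9, of complex I, by 0.38 ± 0.08, while SDHA, the flavoprotein of complex II, rose by 0.36 ± 0.07. Of 14 chaperones of the cytosol and mitochondria 4 fell and 2 rose, and the mitochondrial co-chaperonin HSPE1 was among the 4 (-0.34 ± 0.06). The call for ODC1 was lost when only these 6 arrays were fitted.

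Genes of cell division fell more often than they rose. Of 40 genes of mitosis 21 fell and 0 rose (52.5% called), with a median of -0.19, and without DMSO array 2 the count was 20. NUF2, a kinetochore protein, had 11.34, 11.18 and 11.14 in DAPT arrays, against 11.94, 11.66 and 12.02 in DMSO arrays, with no overlap (-0.65 ± 0.09). HMMR, a spindle protein, fell by 0.43 ± 0.06, BIRC5, or survivin, by 0.43 ± 0.05, the mitotic kinase CDK1 by 0.41 ± 0.07 and its partners CCNA2 and CCNB1 by 0.39 ± 0.07 and 0.37 ± 0.05. MKI67, the usual proliferation marker, gave -0.09 ± 0.08, and FOXM1, a transcription factor of this group, gave 0.02 ± 0.07. Neither passed.

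Of 36 genes of DNA replication 9 fell and 2 rose. ORC6, of the origin recognition complex, fell by 0.53 ± 0.09 and POLE2, a subunit of polymerase epsilon, by 0.49 ± 0.08. GINS2, of the replicative helicase, fell by 0.55 ± 0.07 on 1 probe set, and its other 2 did not pass. The helicase subunits MCM2 and MCM3 rose by 0.31 ± 0.09 and 0.21 ± 0.06. Both calls were lost when only these 6 arrays were fitted. PCNA, the replication clamp, gave -0.08 ± 0.06.

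Among 23 G1 regulators 6 fell and 3 rose. CDKN1A, or p21, an inhibitor of cyclin-dependent kinases, had 9.81, 9.65 and 9.76 in DAPT arrays, against 8.79, 9.07 and 8.96 in DMSO arrays. It rose by 0.80 ± 0.07 (adjusted p = 8.24e-07), and DMSO array 2 was the DMSO array nearest the DAPT arrays. The related inhibitor CDKN1C rose by 0.44 ± 0.09. CDK6, a G1 kinase, fell by 0.45 ± 0.08, E2F5 by 0.44 ± 0.08 and cyclin D1 (CCND1) by 0.36 ± 0.08. Of 16 p53 targets 5 rose and 0 fell, including TP53INP1 (0.62 ± 0.07) and TP53I3 (0.45 ± 0.07), whereas MDM2 gave 0.06 ± 0.09 and did not pass. With median centring, and likewise without DMSO array 2, 2 of the 16 passed as lower. In the BCL2 family and its partners 4 of 17 rose and 2 fell, led by BCL2L1, an inhibitor of cell death, at 0.59 ± 0.07, with BMF, a promoter of it, at 0.42 ± 0.08.

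Most transcription factors of luminal breast epithelium were higher with DAPT. Of 19 measured, 14 rose and 0 fell (73.7% called), with a median change of 0.34. KLF4, a factor of differentiating epithelia, had 9.59, 9.50 and 9.76 in DAPT arrays, against 8.65, 8.66 and 8.48 in DMSO arrays (1.02 ± 0.09). FOXA1, a pioneer factor of luminal cells, had 10.26, 10.12 and 10.25 in DAPT arrays, against 9.46, 9.54 and 9.39 in DMSO arrays (0.75 ± 0.08). The groups of neither overlapped, though FOXA1 did not pass when probe sets were averaged. MYB rose by 0.61 ± 0.07, SPDEF by 0.54 ± 0.09 and ESR1 by 0.45 ± 0.08. GATA3, a master factor of luminal cells, rose by 0.27 ± 0.07 and lost its call when only these 6 arrays were fitted. PGR, ELF5 and TRPS1 gave -0.06 ± 0.09, 0.08 ± 0.11 and 0.12 ± 0.07 and did not pass.

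Of 25 luminal secretory genes 8 rose, 2 fell and 15 did not pass. With median centring 6 were higher. Besides SCGB2A2, PIP and MUCL1, AGR2, a protein disulfide isomerase of secretory cells, had 12.33, 12.39 and 12.29 in DAPT arrays, against 11.45, 11.29 and 11.49 in DMSO arrays (0.93 ± 0.07). Lipocalin 2 (LCN2) rose by 0.62 ± 0.07 and clusterin (CLU) by 0.53 ± 0.07, while PI3, or elafin, a protease inhibitor, fell by 0.46 ± 0.08. TFF1, a trefoil peptide controlled by the oestrogen receptor, gave 0.16 ± 0.12. Of 15 luminal surface proteins 9 rose and 0 fell, among them the mucin MUC1 (0.58 ± 0.08) and CEACAM1 (0.51 ± 0.09), whereas EPCAM gave 0.09 ± 0.06.

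Of 5 luminal keratins 4 rose, KRT7 by 0.50 ± 0.07, KRT8 by 0.42 ± 0.07, KRT18 by 0.32 ± 0.06 and KRT19 by 0.21 ± 0.06, while KRT20 gave -0.21 ± 0.12. Of 6 keratins grouped here as basal, KRT80 among them, 3 fell and 1 rose. KRT14 had 8.27, 8.11 and 8.17 in DAPT arrays, against 9.01, 9.02 and 8.96 in DMSO arrays (-0.81 ± 0.07, adjusted p = 5.13e-07). KRT5, its usual partner, had 11.87, 12.10 and 12.16 in DAPT arrays, against 12.56, 12.68 and 12.42 in DMSO arrays (-0.51 ± 0.08). KRT16 fell by 0.50 ± 0.07 and KRT80 rose by 0.52 ± 0.09. The call for KRT7 was lost when probe sets were averaged and without probe sets marked for cross-hybridization, and that for KRT19 when only these 6 arrays were fitted.

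In a list of 11 other basal genes 3 rose and 2 fell, with a median of -0.07. The cadherin CDH3 rose by 0.44 ± 0.07 and the desmosomal cadherin DSC3 fell by 0.48 ± 0.09. In a list of integrins, laminins and parts of hemidesmosomes, which anchor basal cells to their membrane, 7 of 13 rose and 0 fell. ITGB4 had 9.53, 9.68 and 9.80 in DAPT arrays, against 8.61, 8.73 and 8.75 in DMSO arrays (0.98 ± 0.09), on a probe set marked for cross-hybridization, and its call was lost without such probe sets. The integrin chains ITGA2 and ITGB5, which are not parts of hemidesmosomes, rose by 0.72 ± 0.08 and 0.62 ± 0.08, and ITGA6, the partner of ITGB4, rose by 0.57 ± 0.08. Of 14 tight junction genes 5 rose, led by TJP3 (0.55 ± 0.10) and the claudins CLDN3 (0.40 ± 0.08) and CLDN4 (0.37 ± 0.06), and CLDN8 fell by 0.50 ± 0.10. Of 13 factors and markers of epithelial-mesenchymal transition 0 passed. SNAI2, a Notch-responsive repressor in endothelium, gave -0.20 ± 0.11 and ZEB1 0.01 ± 0.09.

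Among 11 markers used for mammary progenitors 3 fell and 3 rose. ID4, an inhibitor of helix-loop-helix factors, had 9.48, 9.19 and 9.63 in DAPT arrays, against 10.28, 10.47 and 10.29 in DMSO arrays (-0.92 ± 0.12). The receptor kinase KIT fell by 0.61 ± 0.09 and ALDH1A1, an aldehyde dehydrogenase, by 0.61 ± 0.08. Its relative ALDH1A3 rose by 0.51 ± 0.08 and SOX4, a transcription factor, by 0.48 ± 0.07. The 2 aldehyde dehydrogenases thus changed in opposite directions.

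**Figure D3:**
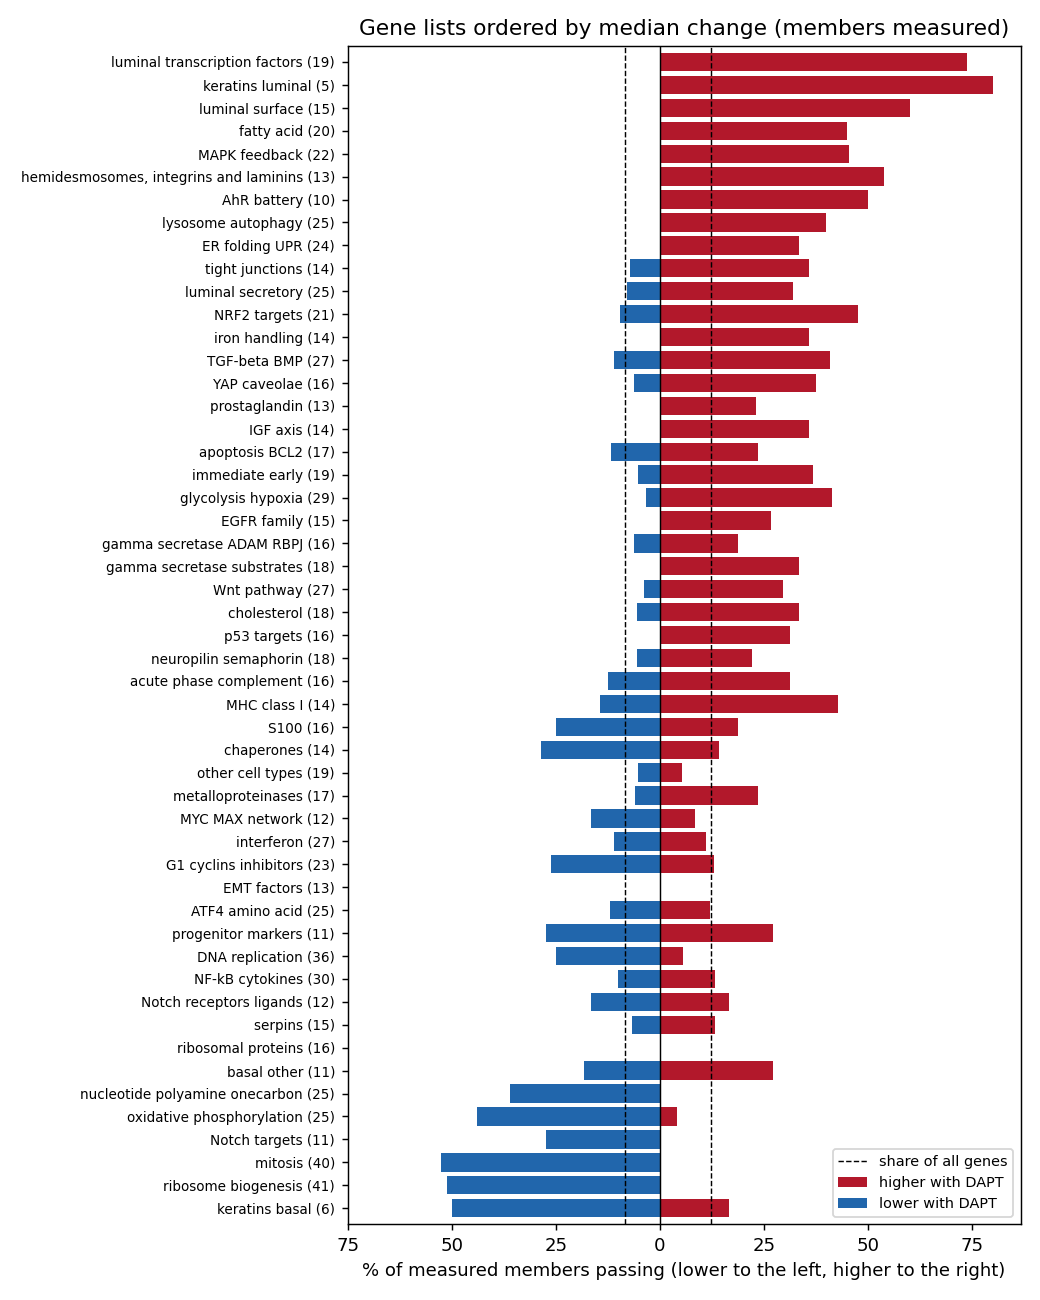
Share of the measured members of each gene list that passed, in percent, with genes higher with DAPT to the right and lower to the left; lists run from the highest median change at the top to the lowest at the bottom, and dashed lines mark the shares over all genes (12.4% higher, 8.31% lower). Luminal transcription factors stand at the top, and basal keratins, ribosome biogenesis and mitosis at the bottom.

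Of 22 feedback regulators of growth factor signalling 10 rose and 0 fell, against 12.4% and 8.31% of all genes, with a median of 0.21. With median centring 9 were higher and 1 lower, and without DMSO array 2, 13 were higher. DUSP6, a phosphatase that switches off ERK, had 9.55, 9.42 and 9.58 in DAPT arrays, against 8.34, 8.56 and 8.48 in DMSO arrays (1.06 ± 0.08, adjusted p = 1.02e-07). SPRED2, an inhibitor of RAF activation, had 9.43, 9.51 and 9.79 in DAPT arrays, against 8.64, 8.85 and 8.64 in DMSO arrays (0.87 ± 0.08). DUSP4 rose by 0.70 ± 0.07 and DUSP2 by 0.69 ± 0.08, and SPRY1 by 0.41 ± 0.09. The immediate-early gene IER5 fell by 0.81 ± 0.06, alone among 19 of its kind, of which 7 rose, including FOSL2 (0.49 ± 0.08) and JUND (0.44 ± 0.07). EGR1 and FOS gave 0.01 ± 0.09 and 0.18 ± 0.10 and did not pass.

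Of 15 members of the EGFR family and its ligands 4 rose and 0 fell, with LRIG1, which promotes loss of EGFR from the surface, at 0.61 ± 0.06 and ERBB3 at 0.34 ± 0.07. Of 14 genes of the insulin-like growth factor axis 5 rose, among them the insulin receptor INSR (0.40 ± 0.07) beside IGFBP5, while IGFBP3 gave -0.13 ± 0.09. In the TGF-beta and BMP list 11 of 27 rose and 3 fell. The 3 were ID4, ID3 (-0.52 ± 0.05) and ID2 (-0.30 ± 0.07), known targets of BMP, whereas the ligands BMP2 (0.71 ± 0.12), TGFB2 (0.58 ± 0.09) and the inhibin chain INHBB (0.60 ± 0.08) rose. The ligand TGFB1 rose by 0.46 ± 0.09 on a probe set marked for cross-hybridization, and gave -0.045 without such probe sets.

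Of 27 Wnt genes 8 rose and 1 fell. DKK1, a secreted inhibitor, had 10.90, 11.02 and 10.87 in DAPT arrays, against 10.25, 9.91 and 10.23 in DMSO arrays (0.80 ± 0.10). The ligand WNT5A rose by 0.73 ± 0.13 and the receptor-removing ligase RNF43 by 0.57 ± 0.08. AXIN2, a usual readout of the canonical pathway, had 7.85, 7.65 and 7.96 in DAPT arrays, against 8.32, 8.31 and 8.36 in DMSO arrays, and fell by 0.51 ± 0.06. Of 16 genes linked to YAP and caveolae 6 rose and 1 fell, with CCN2 at 0.57 ± 0.14 and caveolin 1 (CAV1) at -0.35 ± 0.08. Among neuropilins, plexins and semaphorins, SEMA3C, a ligand of NRP1, rose by 0.58 ± 0.08, and NRP2 gave 0.15 ± 0.12. The call for WNT5A was lost without probe sets marked for cross-hybridization.

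Secreted and inflammatory genes were mixed. Of 16 S100 proteins 4 fell and 3 rose. S100A2 had 10.80, 10.75 and 10.63 in DAPT arrays, against 11.66, 11.44 and 11.78 in DMSO arrays (-0.90 ± 0.09), and S100A8 and S100A9 gave -0.07 ± 0.05 and -0.10 ± 0.05. Of 17 metalloproteinases and their partners 4 rose and 1 fell. While MMP7 fell, the inhibitors TIMP2 (0.68 ± 0.11) and TIMP1 (0.53 ± 0.06) rose. Of 15 serpins 2 rose and SERPINA3 was the 1 that fell, near the shares over all genes (12.4% higher, 8.31% lower). Of 16 acute phase and complement genes 5 rose and 2 fell, with the fibrinogen chains FGB at 0.76 ± 0.13 and FGG at 0.69 ± 0.07, and C3 at -0.37 ± 0.07.

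Of 30 targets and members of the NF-kB system 4 rose and 3 fell, led by the cytokine IL1A (-0.63 ± 0.19) and the chemokine CCL28 (-0.47 ± 0.09). IL6 and CXCL8 gave -0.09 ± 0.06 and -0.19 ± 0.15. With median centring 1 of the 30 rose and 3 fell. Of 27 interferon-induced genes 3 rose and 3 fell, with OAS1 at 0.55 ± 0.06, IRF7 at 0.45 ± 0.06 and IFIT3 at -0.41 ± 0.09. The counts of the NF-kB and interferon lists lay near the shares over all genes, 12.4% higher and 8.31% lower. In antigen presentation 6 of 14 rose and 2 fell. HLA-B, a class I heavy chain, rose by 0.28 ± 0.06 and the loading factor TAPBP by 0.38 ± 0.09, while the immunoproteasome subunits PSMB8 and PSMB9 fell by 0.20 ± 0.06 and 0.24 ± 0.07. HLA probe sets can cross-hybridize between family members, and with median centring 3 of the 14 rose and 3 fell. The calls for IL1A, PSMB8 and PSMB9 were lost when only these 6 arrays were fitted.

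Of 20 genes of fatty acid metabolism 9 rose and 0 fell, led by CYP4Z1, a cytochrome P450 of breast tissue (0.60 ± 0.05), the phosphatidate phosphatase LPIN1 (0.50 ± 0.06) and the desaturase SCD (0.47 ± 0.05). Of 18 genes of cholesterol synthesis 6 rose and 1 fell, with MVD, a step of the mevalonate pathway, at 0.47 ± 0.10, HSD17B7 at -0.43 ± 0.08 and HMGCS1 at 0.09 ± 0.08. Of 29 genes of glycolysis and hypoxia 12 rose and 1 fell. NDRG1 rose by 0.58 ± 0.12 and hexokinase 2 (HK2) by 0.55 ± 0.08, whereas PDK1, a kinase that restrains pyruvate oxidation, fell by 0.54 ± 0.08. LDHA, also known to follow MYC, rose by 0.15 ± 0.05, a call lost when only these 6 arrays were fitted.

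Detoxifying enzymes of the aryl hydrocarbon receptor were among the larger rises. CYP1A1, a P450 oxygenase, had 8.96, 9.05 and 9.39 in DAPT arrays, against 8.32, 7.84 and 7.70 in DMSO arrays (1.18 ± 0.16, adjusted p = 7.47e-05). ALDH3A1, an aldehyde dehydrogenase, had 8.48, 8.42 and 8.77 in DAPT arrays, against 7.44, 7.4996 and 7.51 in DMSO arrays (1.08 ± 0.11). In all 5 of 10 genes of this list rose and 0 fell, while CYP1B1 gave 0.16 ± 0.07 and TIPARP 0.10 ± 0.06. Of 21 NRF2 targets 10 rose and 2 fell, with AKR1B10 at 0.46 ± 0.06, HMOX1 at 0.31 ± 0.07 and AKR1C3 at -0.48 ± 0.12. Of 14 genes for iron 5 rose and 0 fell, STEAP3, a ferric reductase, by 0.63 ± 0.07, and the transferrin receptor TFRC gave -0.11 ± 0.05. Of 13 genes of prostaglandin metabolism 3 rose, against 12.4% of all genes. PTGES rose by 0.39 ± 0.05, and PTGS2 gave 0.06 ± 0.10.

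Of 25 genes of lysosomes and autophagy 10 rose and 0 fell. Cathepsin D (CTSD) had 10.74, 10.73 and 10.81 in DAPT arrays, against 10.20, 10.43 and 10.11 in DMSO arrays (0.52 ± 0.08), and the acid glucosidase GAA rose by 0.48 ± 0.10. SQSTM1, an autophagy receptor, rose by 0.37 ± 0.07 on its brightest probe set, while another of its 5 fell. Of 24 genes of protein folding in the endoplasmic reticulum 8 rose and 0 fell, and 13 rose without DMSO array 2. The transcription factor CREB3L4 rose by 0.57 ± 0.07, XBP1, a driver of secretory capacity, by 0.42 ± 0.08 and the chaperone HYOU1 by 0.37 ± 0.08. The chaperone HSPA5 rose by 0.21 ± 0.07 and lost its call when only these 6 arrays were fitted, and DNAJB9 and HERPUD1 gave -0.0013 ± 0.07 and 0.08 ± 0.06. Of 25 genes of amino acid supply under ATF4 3 rose and 3 fell, with asparagine synthetase (ASNS) at -0.34 ± 0.06 and TRIB3 at 0.32 ± 0.07. In this list 24 of the 25 lay in the upper part of the range of levels, where 21.2% rose and 14.6% fell. Its counts were not above those shares.

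The antagonism experiment gave the same inhibitor at the same dose to arrays not used above. Its cells were plated at 2.5 x 10e6 per dish, grown for 40 h and treated for 24 h with 10 µg/ml control IgG and 5 µM DAPT, or with 10 µg/ml control IgG and 0.05% DMSO, 3 arrays each. There 70 genes passed (0.354%), 40 higher (0.202%) and 30 lower (0.152%). All 19 genes that rose 2-fold in the agonism experiment had a positive change here, 2 of them passing, and 10 of the 11 that fell had a negative one, 5 of them passing. The difference of the changes, agonism minus antagonism, passed for 21 of the 30 genes, and for 1211 of all genes (6.12%). The 30 were chosen for large changes in the same agonism arrays, so their count is a description. Plating density, exposure time, the washout and IgG differed between the experiments and cannot be told apart. The labels leave unsaid whether the experiments were normalized together. Their scales differed, with the median gene at 7.78 to 7.87 in agonism arrays and 8.39 to 8.46 in antagonism arrays, so the size of a change may not be equal on both.

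The difference did not pass for MYC, which changed by -1.34 ± 0.10 with DAPT in the antagonism experiment. The difference of the changes was 0.13 ± 0.12 (adjusted p = 0.559). NRP1 changed by -1.25 ± 0.17 there (difference 0.02 ± 0.18, adjusted p = 0.975). HES1 changed by -0.50 ± 0.07 and NOTCH3 by -0.63 ± 0.097, and neither difference passed. OLFM4 fell in both, at -1.33 ± 0.16 in the antagonism experiment, and the difference of -0.80 ± 0.20 passed (adjusted p = 0.0246). Its antagonism DAPT arrays (6.64 to 6.87) lay below the lower quartile of those arrays, so its fall there may be understated.

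Several genes that rose in the agonism experiment differed between the experiments. SCGB2A2 had 4.83, 4.98 and 5.01 in antagonism DAPT arrays, against 4.80, 4.98 and 4.80 in control arrays, all below the lower quartile of those arrays (7.18 to 7.27). Its difference was 1.87 ± 0.20 (adjusted p = 4.62e-05). PIP gave 0.24 ± 0.10 there, with a difference of 1.35 ± 0.16, and LRRC31 gave 0.08 ± 0.14, with a difference of 1.57 ± 0.21. The antagonism arrays of LRRC31 (6.11 to 6.47 with DAPT, 5.96 to 6.48 in controls) also lay below the lower quartile, so for SCGB2A2 and LRRC31 a change there could go unseen. IGFBP5 passed in both, at 1.17 ± 0.19 in the antagonism experiment (adjusted p = 0.0445), and the difference of 1.39 ± 0.26 passed as well. Its antagonism control arrays (7.19, 6.65 and 7.52) lay near or below the lower quartile of those arrays, so its rise there may be understated. AGR2 rose by 1.02 ± 0.071 in the antagonism experiment and its difference did not pass (adjusted p = 0.664).

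KRT14 gave -0.16 ± 0.14 in the antagonism experiment, where it did not pass, and KRT5 -0.63 ± 0.11, also not passing. The difference passed for KRT14 (adjusted p = 0.0130) and not for KRT5. For ITGB4 the antagonism change was 0.40 ± 0.08 and the difference passed, as it did for 6 of the 13 genes of its list. It passed for 8 of the 25 oxidative phosphorylation genes, 5 of the 41 ribosome biogenesis genes and 6 of the 40 mitosis genes, against 6.12% of all genes and 10.5% of those in the upper part of the range of levels. In the antagonism experiment 0 genes of these lists passed, but only 0.354% of all genes did, so that count says little. The medians there were -0.02, 0.04, -0.17 and -0.18 in that order, against 0.21, -0.14, -0.23 and -0.19 in the agonism experiment.

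The counts of antagonism calls and of differences depended on single arrays. Without 1 array the antagonism count was 16, 12 and 17 (DAPT arrays 1, 2 and 3) or 11, 1198 and 35 (control arrays 1, 2 and 3). With 1 antagonism array left out, the differences that passed numbered 503 (DAPT array 1), 509 (DAPT array 2), 481 (control 1) and 2828 (control 2). With 1 agonism array left out, they numbered 373 (DAPT array 3), 357 (DMSO array 1), 2398 (DMSO array 2) and 326 (DMSO array 3). With only the arrays of the 4 groups in the fit, 72 differences passed.

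**Figure D4:**
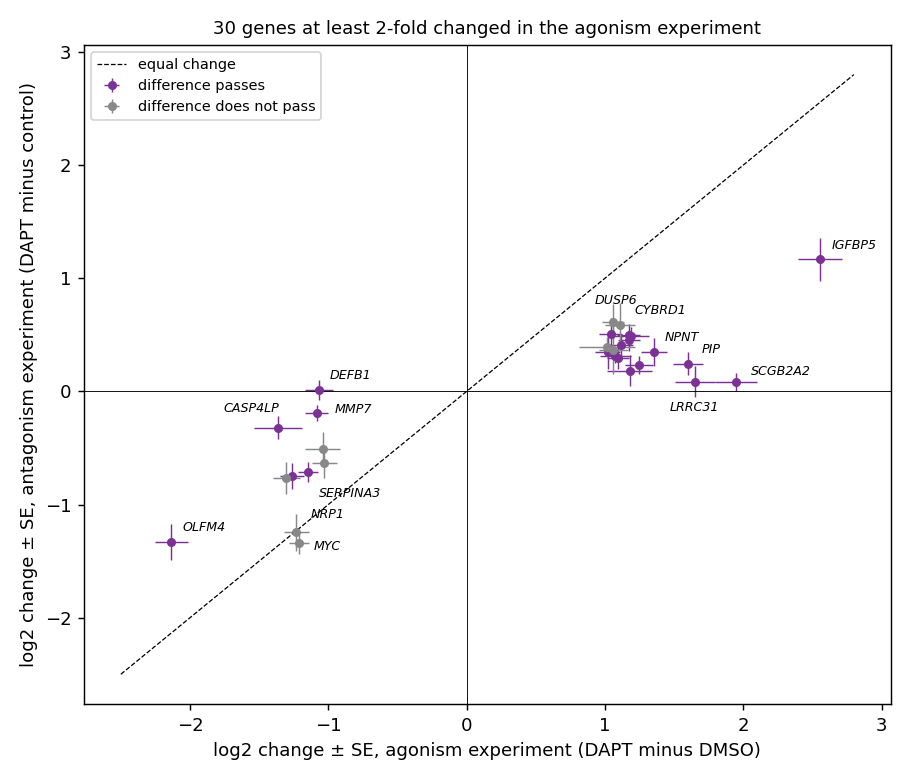
Log2 change with DAPT and its standard error for the 30 genes, in the agonism experiment (horizontal axis, DAPT minus DMSO) and in the antagonism experiment (vertical axis, DAPT minus control); the dashed line marks equal change, and purple marks a difference that passed. MYC and NRP1 lie on or near the line, while SCGB2A2, LRRC31 and PIP lie far to the right of it.

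A group of 3 further arrays came from plates that received DAPT for the first 16 h, were washed, and then had 20 µg/ml control IgG and no DAPT for 24 h. Their levels are given beside the others as a description, since they share the experiment's arrays and the genes were chosen on DAPT and DMSO. Of the 19 genes that rose with DAPT the washout mean lay closer to the DMSO mean for 14 and closer to the DAPT mean for 5. Of the 11 that fell it lay closer to the DMSO mean for 7 and closer to the DAPT mean for 4. A mean closer to DMSO was not always a return to the DMSO level. MYC stood at 10.88 ± 0.13 after washout, against 9.43 ± 0.13 with DAPT and 10.64 ± 0.05 with DMSO (SD, n = 3 each). NRP1 stood at 8.41 ± 0.08, against 6.91 with DAPT and 8.14 with DMSO. SERPINA3 stood at 11.03 ± 0.10, against 9.55 with DAPT and 10.69 with DMSO. In MYC, NRP1 and SERPINA3 the washout arrays lay above the DMSO arrays without overlap. OLFM4 stood at 7.34 ± 0.16 after washout, against 5.28 ± 0.22 with DAPT and 7.41 ± 0.15 with DMSO.

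Others remained nearer the DAPT level. DUSP6 stood at 9.20 ± 0.10 after washout, against 9.52 ± 0.09 with DAPT and 8.46 ± 0.11 with DMSO, and KLF4 at 9.23 ± 0.13, against 9.62 ± 0.13 with DAPT and 8.60 ± 0.10 with DMSO. POLR3G stood at 7.51 ± 0.11, against 7.44 ± 0.18 with DAPT and 8.48 ± 0.29 with DMSO, and FAM216A at 7.20 ± 0.13, against 6.87 ± 0.16 with DAPT and 8.17 ± 0.19 with DMSO. CYP1A1 lay below both, at 6.997 ± 0.12, against 9.13 ± 0.23 with DAPT and 7.95 ± 0.33 with DMSO. So did TMPRSS11E, at 6.74 ± 0.04, against 8.43 with DAPT and 7.25 with DMSO. Neither gene's washout arrays overlapped those of DMSO, and both genes are counted above as closer to the DMSO mean. The washed plates also held IgG and had no fresh agent at 22 h, which cannot be told apart here from the removal of DAPT.

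**Figure D5:**
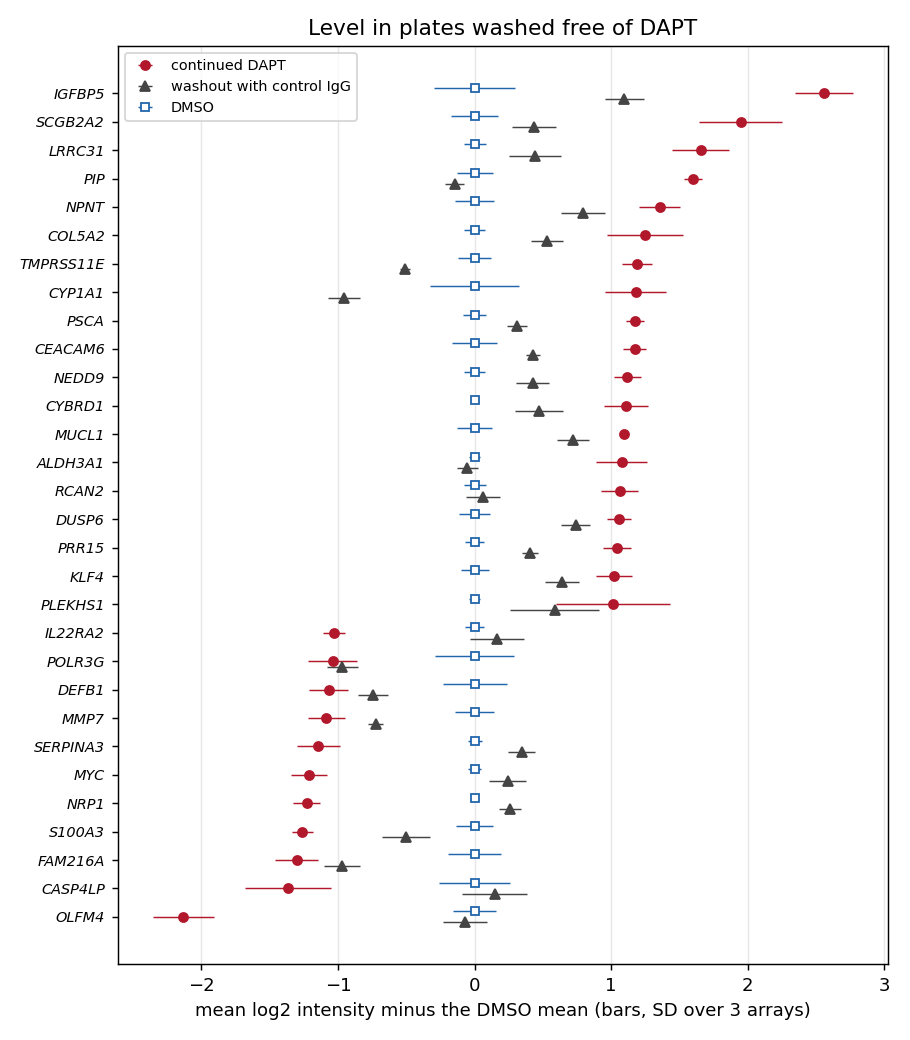
Mean log2 intensity minus the DMSO mean for the 30 genes, in arrays with continued DAPT (circles), with control IgG after washout (triangles) and with DMSO (squares at 0); bars are the SD over 3 arrays. Triangles lie near 0 for OLFM4, to the right of 0 for MYC, NRP1 and SERPINA3, and near the circles for POLR3G, FAM216A and DUSP6.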

How the data were processed

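Expression was measured on Affymetrix HG-U133 Plus 2.0 arrays. The deposited values are linear intensities, 7.45 to 32251 in the 6 arrays; RMA and R 2.10 are named, without their roles, per the submitters' processing notes. RMA makes array distributions alike, so a change of most transcripts in the same direction would be reduced, and it gives no detection calls. Precision is limited by the number of arrays.

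The intensities were converted to log2. Of 54675 probe sets, 41091 named 1 gene, 1801 several and 11783 none, 62 of these being controls. For 41037 the gene ID matched the RefSeq gene table, and 0 symbols changed. For each of 19775 genes the probe set that was brightest on average across the 26 arrays, among those naming that gene alone, stood for it. For genes with several probe sets, disagreements are given beside the gene.

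The limma test (version 3.58.1 in R 4.3.3) was fitted over all 18 agonism arrays, which share 1 estimate of the spread, with Benjamini-Hochberg adjustment over all genes at 0.05. The antagonism comparison and the difference of the changes used the same test over that experiment's arrays and over all 26. The labels give no batches and no replicate numbers, so arrays are numbered in accession order. The labels' groups were used as given.

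Alternatives were a fit to these groups alone, trended and robust variances, median centring, repeated quantile normalization, a filter on level, averaged probe sets, probe sets chosen on the agonism arrays, removal of probe sets marked _x_at or _s_at, addition of 16 before log2, and omission of each array. The fits were tested on simulated data.

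The gene lists and the rule for named genes were chosen with earlier results of these data known. Named were genes that passed, changed at least 2-fold and did not overlap, members of the Notch and MYC lists, up to 6 passing members per direction of every other list with members that define it, and the 10 largest differences between experiments in each direction.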

Additional observations from a re-analysis of the deposited data

Results flagged for a closer look

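The items below are genes whose change with DAPT differed between the experiments by the test of the difference itself (limma over 26 arrays, adjusted p below 0.05). Values are the agonism change minus the antagonism change, in log2 units, and no explanation was tested. Groups of 3 arrays are too small for the test of single outlying arrays.

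Among genes that rose in the agonism experiment, the difference was 1.87 for SCGB2A2, 1.57 for LRRC31, 1.39 for IGFBP5 and 1.35 for PIP. For COL5A2 it was 1.01, for NPNT 1.005 and for MUCL1 0.8. It was 0.995 for CYP1A1, 0.759 for ALDH3A1, 0.725 for PSCA, 0.707 for NEDD9, 0.695 for TMPRSS11E, 0.673 for KLF4, 0.671 for CEACAM6 and 0.536 for PRR15. Among genes that fell it was -1.08 for DEFB1, -1.04 for CASP4LP, -0.896 for MMP7, -0.801 for OLFM4, -0.514 for S100A3 and -0.434 for SERPINA3. The measured fall of these was thus larger in the agonism experiment, and DEFB1 had no fall in the antagonism experiment (0.01 ± 0.09). All antagonism arrays of CASP4LP (5.87 to 6.45) lay below the lower quartile of those arrays, so a fall there could go unseen. The antagonism DAPT arrays of OLFM4 (6.64 to 6.87) did too, so its fall there may be understated. The antagonism control arrays of IGFBP5 (6.65 to 7.52) lay near or below that quartile, so its rise there may be understated.

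Other genes did not pass in the agonism experiment. CGA, the shared subunit of glycoprotein hormones, gave -0.03 ± 0.11 in the agonism experiment and fell by 1.75 ± 0.25 in the antagonism experiment, a difference of 1.72. SERPINB3, a protease inhibitor of squamous epithelium, gave -0.05 ± 0.09 and -1.13 ± 0.15, a difference of 1.08, and passed in the second. Its agonism DAPT and DMSO arrays (6.04 to 6.27) lay below the lower quartile of those arrays, so a fall there could go unseen. RGS2, a regulator of G-protein signalling, gave 0.10 ± 0.10 and 0.98 ± 0.09, a difference of -0.885, and passed in the second. TNC, a matrix glycoprotein, and STEAP2, a metalloreductase, passed in neither experiment, and their differences were 1.15 and -0.911. The agonism DAPT and DMSO arrays of TNC (6.17 to 6.57) lay near the lower quartile of those arrays. Its antagonism DAPT arrays (5.82 to 6.33) lay below theirs, and its antagonism control arrays disagreed (7.08, 6.43 and 7.77). STEAP2 lay at 4.56 to 4.91 in agonism DAPT arrays and 4.72 to 5.17 in agonism DMSO arrays, below the lower quartile of those arrays.

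PKIB, an inhibitor of protein kinase A, rose by 0.81 ± 0.11 in the agonism experiment (difference 1.02), and BBOX1, the last enzyme of carnitine synthesis, fell by 0.62 ± 0.08 (difference -0.872). Neither passed in the antagonism experiment. The antagonism arrays of PKIB (5.91 to 6.43) lay below the lower quartile of those arrays, so a change there could go unseen. The difference was -1.05 for the antisense transcript RUSC1-AS1, -0.923 for a probe set annotated MIRLET7D, -0.854 for TAF1D and -0.845 for GOLGA2P5, a pseudogene. In these the DMSO arrays disagreed. RUSC1-AS1 had 7.60, 7.87 and 7.36 in agonism DAPT arrays, against 8.87, 8.02 and 8.78 in DMSO arrays, and MIRLET7D had 7.80, 7.90 and 7.73, against 8.81, 8.04 and 8.73. TAF1D, a factor of polymerase I, had 7.32, 7.10 and 7.07 in agonism DAPT arrays, against 8.26, 7.61 and 8.35 in DMSO arrays. DMSO array 2 was the low DMSO array in each.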

How the results depend on the processing

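No paired analysis was possible because the labels give no replicate numbers. The number of genes changed by DAPT was 2532 with only the DAPT and DMSO arrays in the fit, and 2585 to 4975 with 1 array left out. The antagonism count was 109 with median centring and 11 to 1198 with 1 array left out. The count of differences was 72 with only the 4 groups, 2012 among genes above the median level in both experiments, and 326 to 2828 with 1 array left out. The 2-fold count stayed between 20 (averaged probe sets) and 43 (without DMSO array 2). Among the named genes, 289 passed. Every alternative tested 190 of these, and the call of 117 held under all. Of 4592 alternative values 366 lost the call, 16 gained it and 14 turned sign.

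With averaged probe sets the change was -0.027 for CD44, -0.00068 for ELOVL5, -0.0031 for MCL1 and -0.0036 for SQSTM1. Without probe sets marked _x_at or _s_at it was 0.078 for CD59, 0.033 for CXCL2, 0.0052 for GINS2, 0.057 for HES1, -0.25 for HLA-F, -0.25 for MCL1, 0.0032 for PPAT, -0.44 for SQSTM1, -0.045 for TGFB1 and -0.0058 for WNT6. Each of these rests on other probe sets by construction.

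The median of 8 lists near 0 changed sign with scaling, those of the MYC network, G1 regulators, epithelial-mesenchymal transition, metalloproteinases, interferon, ATF4, chaperones and other cell types. Signals near the bottom of the range, such as those of PLEKHS1 and NUMB, cannot be told from background here.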
